A study of Rattus norvegicus with 12 samples.

Results

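The genes described here encode secreted matricellular proteins, a secreted peptide hormone, a matrix protease and a protease inhibitor: Ccn1 (listed as Cyr61), Ccn2 (listed as Ctgf), Adm, Mmp3 and Serpinb10. They were picked by symbol from the gene lists that the submitters deposited for the response to rapamycin, so their rapamycin responses chose them and are given below as a description without a test. Each gene was measured by 1 probe, giving 5 probes of the 22523 on the array, of which 1734 carried a gene name. Ccn1 and Adm were listed for both cell lines, Ccn2 for TGR-1 cells only, and Mmp3 and Serpinb10 for HO15.19 cells only. The probes were ILMN_1372919 (Ccn1), ILMN_1364113 (Ccn2), ILMN_1356203 (Adm), ILMN_1361666 (Mmp3) and ILMN_1351430 (Serpinb10).

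RNA came from rat fibroblasts of genotype c-Myc+/+ (TGR-1) or c-Myc-/- (HO15.19), and each line received either vehicle (DMSO, called control) or rapamycin (50 nM) for 24 hr. The replicates were described as independent biological ones, and p-values measure the spread between these samples. Each of the 4 groups held 3 arrays. TGR-1, labelled hrpt-, was subcloned from Rat-1, an immortalized embryonic line, and HO15.19 was derived from TGR-1 by inactivation of c-myc through homologous recombination. The study used both lines to ask whether the changes with rapamycin depended on c-Myc. Here the levels of the lines are compared as well. Each genotype was represented by 1 line, so line and genotype cannot be told apart. Doubling times were also given as 18 to 21.5 hr for TGR-1 and 45 to 60 hr for HO15.19, and their part in any difference was not tested.

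Rapamycin inhibits mTOR, a kinase that promotes protein synthesis and cell growth, and c-Myc is a transcription factor that drives growth genes through E-boxes. CCN1 and CCN2 are secreted proteins of the CCN family that sit in the matrix, bind integrins and heparan sulphate, and alter cell adhesion and growth factor signalling without forming part of the fibrous scaffold. In fibroblasts both are early response genes that the YAP and TEAD factors and serum response factor (SRF) switch on. Adrenomedullin (Adm) is a secreted vasodilator peptide that signals through the receptor Calcrl paired with a RAMP protein. MMP3 (stromelysin 1) degrades proteoglycans and other matrix proteins and activates other secreted proteases, and its gene is a classical target of AP-1. Serpinb10 belongs to the clade B serpins, inhibitors of serine proteases that mostly act inside the cell.

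The region around each start site is shown where it held elements of the factors named above. RefSeq start sites on the rat build GRCr8 were found for 5 of 5 genes, and the windows ran from 250 bases before the start to 50 after it. The 3 windows with a match are printed 5′ to 3′ on the strand of the gene, with matches in capitals. Ccn1 lies on the minus strand (chr2:237225640-237225939), as does Ccn2 (chr1:22624565-22624864), and Mmp3 lies on the plus strand (chr8:12925031-12925330).
Ccn1: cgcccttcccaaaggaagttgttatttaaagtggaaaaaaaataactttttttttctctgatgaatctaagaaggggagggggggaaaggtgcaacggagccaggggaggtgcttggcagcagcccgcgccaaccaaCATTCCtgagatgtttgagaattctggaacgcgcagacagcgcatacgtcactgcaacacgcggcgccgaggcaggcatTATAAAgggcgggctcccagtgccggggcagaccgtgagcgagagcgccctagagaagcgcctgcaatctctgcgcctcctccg
Ccn2: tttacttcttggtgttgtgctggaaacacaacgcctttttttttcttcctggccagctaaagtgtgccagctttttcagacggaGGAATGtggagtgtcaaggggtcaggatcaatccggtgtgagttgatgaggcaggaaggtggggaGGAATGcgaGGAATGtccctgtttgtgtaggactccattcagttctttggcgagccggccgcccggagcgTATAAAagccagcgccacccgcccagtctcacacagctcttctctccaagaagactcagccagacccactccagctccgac
Mmp3: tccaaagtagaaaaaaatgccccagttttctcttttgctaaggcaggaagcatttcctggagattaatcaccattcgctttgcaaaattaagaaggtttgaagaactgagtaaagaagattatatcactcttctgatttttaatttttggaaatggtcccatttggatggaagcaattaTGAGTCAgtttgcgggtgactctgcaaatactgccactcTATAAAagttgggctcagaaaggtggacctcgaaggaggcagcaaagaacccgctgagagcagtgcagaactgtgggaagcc

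The motifs searched on both strands were the TEAD element CATTCC, the AP-1 element TGANTCA, the E-box CACGTG bound by Myc and Max, the hypoxia factor core ACGTG, the CArG box of SRF and the TATA core TATAAA. The hypoxia core is contained in the E-box, so a window with the E-box is counted for both. The Ccn1 window held 1 TEAD element, which began 113 bases before the start. The Ccn2 window held 3 TEAD elements, all read on the other strand as GGAATG, which began 166, 101 and 92 bases before the start. The Mmp3 window held 1 AP-1 element, 71 bases before the start. All 3 of these windows also held the TATA core, at 34, 31 and 32 bases before the start of Ccn1, Ccn2 and Mmp3.

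Over the 33469 promoters of the same length, 14.2% held a TEAD element, 7.33% an AP-1 element and 14.2% a TATA core. At least 3 TEAD elements were present in 32 of them (0.0956%), a count chosen after the Ccn2 window had been seen. The windows of Adm (chr1:174179950-174180249) and Serpinb10 (chr13:24067803-24068102) held none of the 6 motifs. None of the 5 windows held an E-box, a hypoxia core or a CArG box, which occurred in 6.42%, 19.3% and 1.64% of promoters. These are matches of letters only, and no measurement of binding was made.

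**Figure D1:**
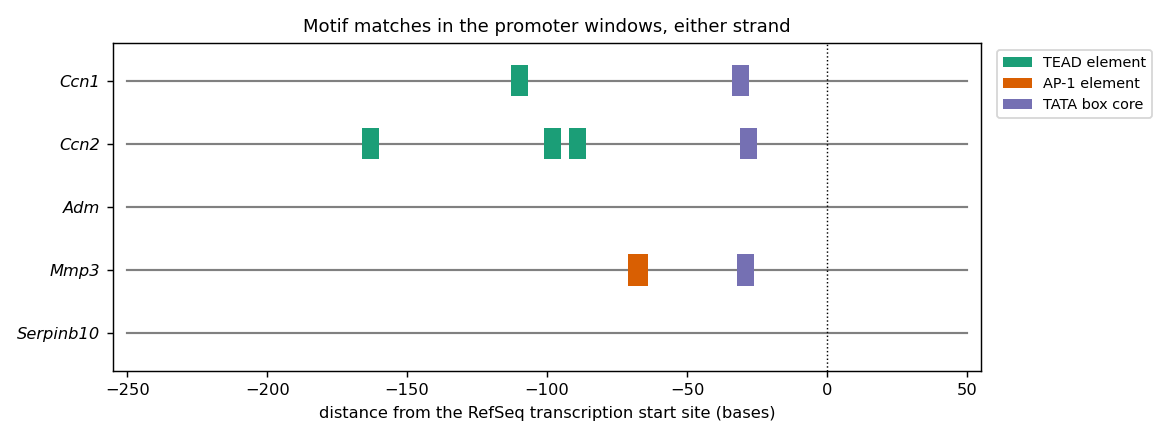
Each line is the window of 1 gene, from 250 bases before to 50 after the RefSeq start site (x axis, bases), and blocks mark motif matches on either strand. Ccn2 carries 3 TEAD elements, Ccn1 carries 1, Mmp3 carries 1 AP-1 element, and Adm and Serpinb10 show none.

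Mean raw signal per array ranged from 334 to 370 in TGR-1 and from 255 to 405 in HO15.19, and 9605 to 10472 probes were detected (detection p below 0.05). Arrays of a group correlated at 0.989 or more over all tested probes, and no pair of arrays was identical. The HO15.19 rapamycin replicate 2 array had both the highest mean signal (405) and the most detected probes (10472). Among fibroblast markers, Col1a1, Col3a1 and Fn1 were detected on 12 of 12 arrays, whereas lumican (Lum) was detected on the 6 HO15.19 arrays and on none from TGR-1. No epithelial, endothelial, smooth muscle or adipocyte marker of the lists searched carried a name here, so these cell types were not assessed. Of 6 macrophage markers only Cd14 carried a name, so this cell type was not assessed either. Cd14 was detected on 12 of 12 arrays and was 0.31 higher on the log2 scale in HO15.19 (adjusted p = 0.0143 in limma), and its part in the results was not tested. In whole cultures, a larger share of expressing cells and more RNA per cell cannot be told apart.

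Levels are normalised log2 signals, in which a step of 1 is a doubling, and they are compared only between groups for the same probe. The line difference is the HO15.19 level minus the TGR-1 level, averaged over control and rapamycin. Its estimate is not correlated with that of the rapamycin response in either line, because both treatments of a line have the same weight. The gene lists came from these same arrays, so the spread and signal level behind the test are not independent of the choice of genes. The line difference was tested with limma on 10852 probes detected on at least 3 arrays. A call required a Benjamini-Hochberg adjusted p below 0.05, an unadjusted p of 0.01 or less and a change of at least 1.2-fold.

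Mmp3 showed the largest tested line difference of the group, with signal near the detection limit in TGR-1 cells and well above it in HO15.19 cells. The TGR-1 control arrays read 5.80, 5.59 and 5.87, and the TGR-1 rapamycin arrays 5.28, 5.56 and 5.41. The HO15.19 control arrays read 9.57, 10.26 and 9.83, and the HO15.19 rapamycin arrays 9.47, 9.29 and 9.64. The 6 HO15.19 arrays thus lay above the 6 TGR-1 arrays with a wide gap and no overlap, which was so for 11.8% of the probes tested.

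The Mmp3 line difference was 4.09 on the log2 scale (SE 0.11, 95% interval 3.86 to 4.32, adjusted p = 1.69e-14), or 17-fold. Without background correction it was 3.09, or 8.52-fold, and with the submitters' normalised values 3.10, or 8.59-fold, so the size of the fold depended on how the background was handled. With correction it was 4.13 with DMSO and 4.05 with rapamycin, so the stromelysin difference was similar under both treatments (difference of differences −0.08, 95% interval −0.55 to 0.39). Raw Mmp3 signal was 90.7 to 109 in TGR-1 and 544 to 1170 in HO15.19. The probe still counted as detected on every TGR-1 array, with a highest detection p of 0.017. In the submitters' normalised values its highest TGR-1 group mean was 110, just above 100. Of the 984 probes listed for TGR-1, 984 reached 100 in their own line. Of the 1143 listed for HO15.19, 1141 did. Mmp3 was listed for HO15.19 only, the line where it was high, which favours a difference in this direction. Its p-value does not allow for that choice, so nothing further is read from it.

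Serpinb10 was high in HO15.19 cells and was the only one of the 5 genes that some arrays did not detect. The TGR-1 control arrays read 4.58, 4.51 and 4.59 with detection p of 0.349, 0.481 and 0.314, so none detected it. The TGR-1 rapamycin arrays read 4.99, 4.99 and 5.36 with detection p of 0.0461, 0.0497 and 0.0194, at or close to the lowest detectable signal. The HO15.19 control arrays read 10.87, 11.06 and 10.84, and the HO15.19 rapamycin arrays 11.80, 11.66 and 11.68. All HO15.19 arrays therefore stood far above all TGR-1 arrays for this protease inhibitor. Of the probes tested, 11.8% had all HO15.19 arrays above all TGR-1 arrays.

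Because Serpinb10 was not measurable in TGR-1 controls, its line difference is a lower bound, set against the lowest signal that counted as detected on each array. HO15.19 exceeded TGR-1 at least 61.5-fold with DMSO and at least 77.3-fold over both treatments. Without background correction these bounds were 23.6-fold and 30.2-fold. With rapamycin the fitted difference was 6.60 on the log2 scale, or 5.27 without background correction. It was taken against TGR-1 signals of 4.99, 4.99 and 5.36 that lay near the lowest detected signal, so its fitted interval is not quoted. No test is given, because a gene that entered the HO15.19 list while lying under the value of 100 in TGR-1 (highest group mean 89.7) had to differ between the lines. Of the 1143 probes listed for HO15.19, 37 lay under that value in TGR-1.

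Adm was higher in HO15.19 cells under both treatments. The TGR-1 control arrays read 8.14, 8.17 and 8.23, and the TGR-1 rapamycin arrays 9.20, 9.13 and 9.30. The HO15.19 control arrays read 9.08, 9.13 and 9.26, and the HO15.19 rapamycin arrays 10.03, 10.12 and 10.01. The HO15.19 arrays lay above the TGR-1 arrays in controls (as for 22.8% of tested probes) and with rapamycin (21.7%). By contrast, HO15.19 control and TGR-1 rapamycin cells overlapped in adrenomedullin signal (9.16 ± 0.09 and 9.21 ± 0.09, SD, n = 3). The Adm line difference was 0.91 on the log2 scale (SE 0.07, 95% interval 0.76 to 1.07, adjusted p = 2.2e-08), or 1.88-fold, with 0.98 in controls and 0.85 with rapamycin.

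Ccn2 was higher in HO15.19 cells in the absence of rapamycin, and its levels came close together in its presence. The TGR-1 control arrays read 13.27, 12.99 and 13.12, and the TGR-1 rapamycin arrays 13.61, 13.69 and 13.73. The HO15.19 control arrays read 13.93, 13.91 and 13.90, and the HO15.19 rapamycin arrays 13.89, 13.54 and 13.90. The TGR-1 controls lay below all other arrays, and the remaining groups were close, with the HO15.19 rapamycin range spanning that of TGR-1 with rapamycin. All HO15.19 controls lay above all TGR-1 controls for 22.8% of tested probes. Ccn2 had the highest raw signals of the 5 genes. On HO15.19 rapamycin replicates 1 and 2, with array means of 255 and 405, raw Ccn2 signal was 11780 and 14330. Raw Adm signal on these arrays was 774 and 1520. Whether Ccn2 signal was compressed at this brightness, which would narrow its differences, was not tested.

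Averaged over treatments, the Ccn2 line difference was 0.45 on the log2 scale (SE 0.08, 95% interval 0.27 to 0.62, adjusted p = 0.000313), or 1.36-fold. It was 0.79 with DMSO (95% interval 0.53 to 1.04) and 0.10 with rapamycin (95% interval −0.15 to 0.36). Ccn2 was listed for TGR-1 only, where it rose with rapamycin. That choice favours a smaller line difference with rapamycin than with DMSO, so nothing further is read from the narrowing. When median centring of the tested probes replaced quantile normalisation, the Ccn2 line difference was 0.19 and no longer met the criteria (adjusted p = 0.157 in limma).

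For Ccn1 too the TGR-1 controls lay lowest, and the line difference was smaller. The TGR-1 control arrays read 10.65, 10.53 and 10.27, and the TGR-1 rapamycin arrays 11.34, 11.72 and 11.38. The HO15.19 control arrays read 10.86, 10.91 and 11.11, and the HO15.19 rapamycin arrays 11.60, 11.77 and 11.54. Ccn1 signal thus separated the lines in controls (as for 22.8% of tested probes) and overlapped between them with rapamycin.

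The Ccn1 line difference was 0.32 on the log2 scale (SE 0.10, 95% interval 0.12 to 0.52, adjusted p = 0.0107), or 1.25-fold. It was 0.48 with DMSO (95% interval 0.20 to 0.76) and 0.16 with rapamycin (95% interval −0.13 to 0.44). This call depended on single arrays, and it missed the unadjusted p of 0.01 without TGR-1 control replicate 3 (0.26, adjusted p = 0.0347), TGR-1 rapamycin replicate 1 (0.28, adjusted p = 0.0321) or replicate 3 (0.29, adjusted p = 0.0285). The same held without HO15.19 control replicate 3 (0.28, adjusted p = 0.0293) or HO15.19 rapamycin replicate 2 (0.28, adjusted p = 0.0285), all in limma. Array weights gave 0.27 (adjusted p = 0.0239), and centring on the median gave 0.14 (adjusted p = 0.327).

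In all, 4 of the 4 tested genes met the criteria for a higher level in HO15.19, against 19.5% of the 10852 tested probes called higher and 40.2% called in either direction. The 4 include Mmp3, whose listing favoured this direction. The median line difference over the 5 genes was 0.91, compared with −0.01 over all tested probes. In absolute size it was 0.91, compared with 0.22 over all tested probes and 0.41 over the 1733 named ones. A gene needed a rapamycin response and a signal of about 100 or more in a line to be named, which favours genes expressed in that line, so nothing further is read from this count.

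**Figure D2:**
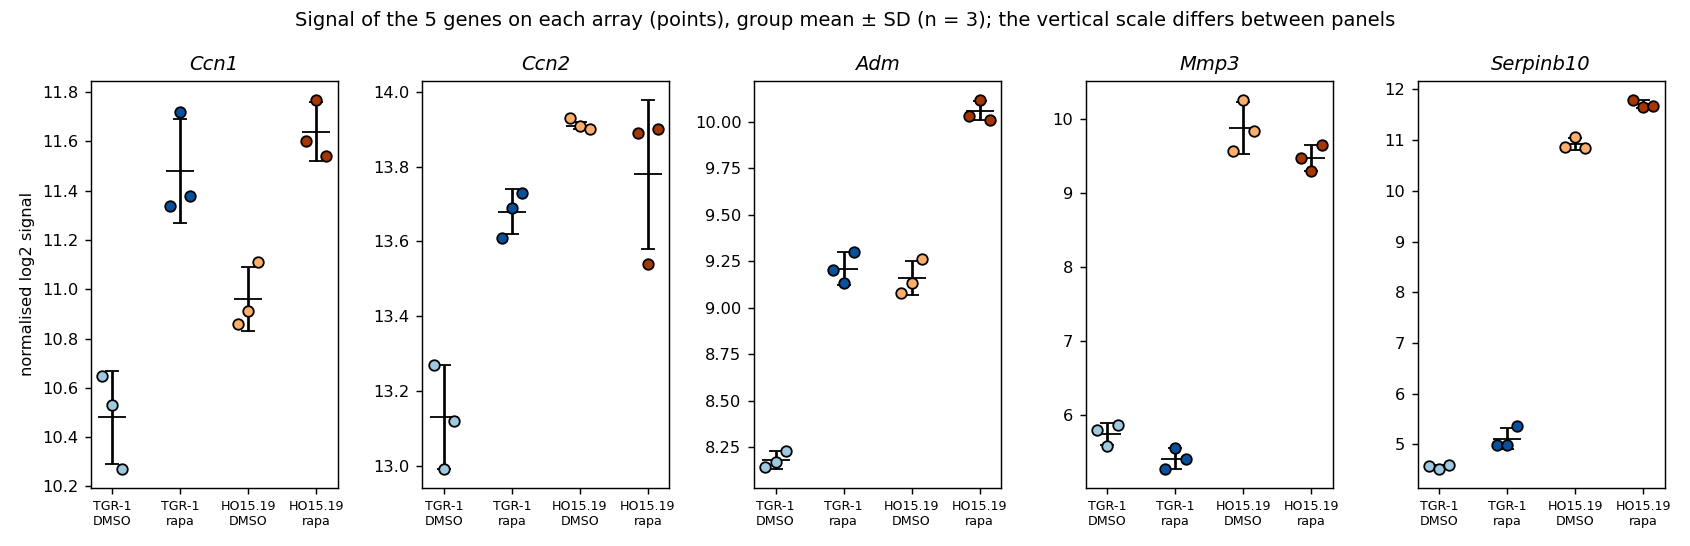
Normalised log2 signal (y axis, a separate scale for each gene) on each of the 12 arrays, by line and treatment, with horizontal bars for the group mean and error bars for the SD (n = 3). Mmp3 and Serpinb10 separate all HO15.19 arrays from all TGR-1 arrays, Adm steps up with line and with rapamycin, and for Ccn1 and Ccn2 the TGR-1 controls lie lowest.

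**Figure D3:**
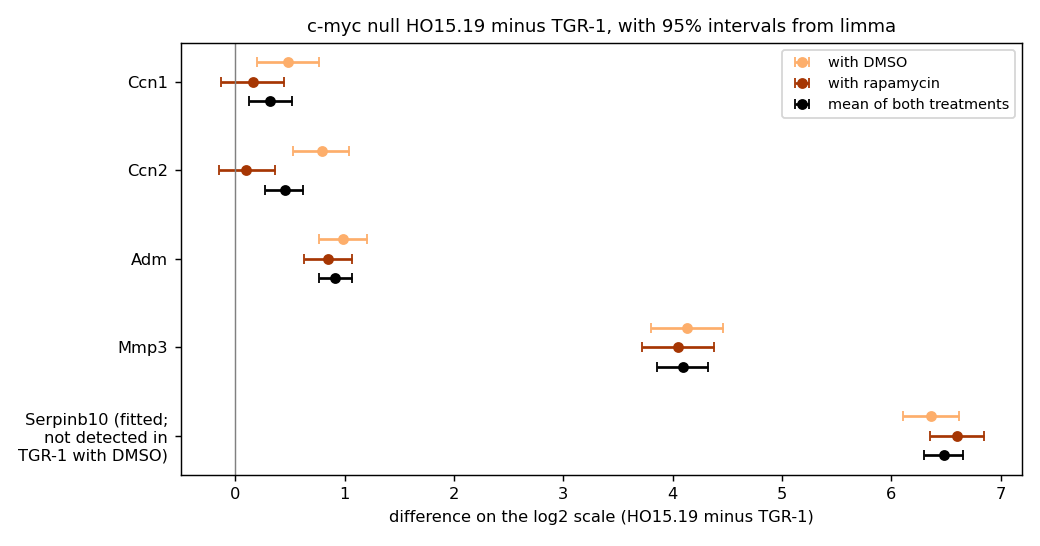
HO15.19 minus TGR-1 difference on the log2 scale (x axis) for each gene with DMSO, with rapamycin and averaged, as points with 95% intervals from limma. With rapamycin the points lie nearest to 0 for Ccn1 (0.16) and Ccn2 (0.10). The Serpinb10 points and intervals are fitted values for a gene at or below the detection limit in TGR-1, and its intervals do not give the precision of its line difference.

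The rapamycin responses are given next as values, since they chose the genes. The response of each line shares its control arrays with the line difference in controls, and its rapamycin arrays with the line difference under rapamycin. Ccn1 was 1.00 higher with rapamycin in TGR-1 on the log2 scale (SE 0.13, 95% interval 0.72 to 1.28) and 0.68 higher in HO15.19 (SE 0.13, 95% interval 0.39 to 0.96). The rapamycin arrays lay above the control arrays in both lines for this matricellular gene, as they did for Adm, which was so for 3.98% of all tested probes. Adm was 1.03 higher in TGR-1 (SE 0.10) and 0.90 higher in HO15.19 (SE 0.10), or 2.04-fold and 1.86-fold.

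Ccn2 was 0.55 higher with rapamycin in TGR-1 (SE 0.12, 95% interval 0.30 to 0.80), with all rapamycin arrays above all controls (12.9% of tested probes). In HO15.19 its difference was −0.14 (SE 0.12, 95% interval −0.39 to 0.12), and the array ranges of the treatments overlapped. Without HO15.19 rapamycin replicate 2, the array with the highest mean signal, the HO15.19 value was −0.02. The difference between the Ccn2 responses of the lines was −0.68 (95% interval −1.04 to −0.33), compared with −0.32 for Ccn1 (95% interval −0.73 to 0.08) and −0.13 for Adm (95% interval −0.44 to 0.18). Ccn2 was listed for TGR-1 only and the others for both lines, so this order follows from how the genes were chosen.

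Mmp3 was the only one of the 5 genes with lower values in both lines. Its difference with rapamycin was −0.42 in HO15.19 (SE 0.16, 95% interval −0.75 to −0.09), where the ranges of the treatments overlapped. Leaving out HO15.19 control replicate 2, the highest array, gave −0.23, and leaving out HO15.19 control replicate 1 gave −0.58. In TGR-1 the value was −0.34 (SE 0.16, 95% interval −0.67 to −0.01), at signals close to the detection limit, and the rapamycin arrays lay below the controls (12.4% of tested probes).

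Serpinb10 was 0.79 higher with rapamycin in HO15.19 (SE 0.12, 95% interval 0.53 to 1.04), or 1.73-fold, with all rapamycin arrays above all controls (10.4% of tested probes). In TGR-1 it passed from undetected in 3 controls to marginally detected in 3 rapamycin arrays. The lower bound of 1.09-fold rests on TGR-1 rapamycin replicate 3 (5.36). Replicates 1 and 2 (4.99 each) lay close to the lowest detected signals of their arrays (4.97 and 4.98). The smallest response of a gene in a line for which it was listed was therefore that of Mmp3 in HO15.19 (−0.42). Outside the lists lay Ccn2 in HO15.19 (−0.14), Mmp3 in TGR-1 (−0.34) and Serpinb10 in TGR-1 (fitted 0.55, from a group below detection). By the criteria above, 3.96% of all tested probes were called for rapamycin in TGR-1, 5.14% in HO15.19 and 0.111% for the difference between the lines.

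**Figure D4:**
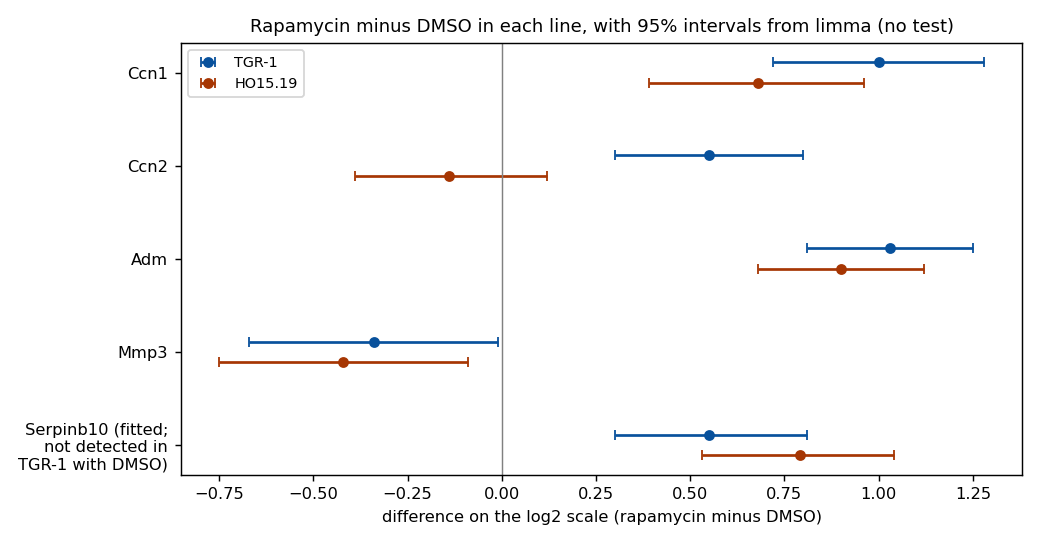
Rapamycin minus DMSO difference on the log2 scale (x axis) for each gene in TGR-1 and HO15.19, as points with 95% intervals from limma, without a test because these responses chose the genes. Ccn1 and Adm lie to the right of 0 in both lines, Ccn2 only in TGR-1 (0.55 and −0.14), and Mmp3 to the left in both. The Serpinb10 point and interval for TGR-1 are fitted values from a control group below detection.

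Ordered by mean level, Ccn1 ran from TGR-1 control (10.48 ± 0.19) through HO15.19 control (10.96 ± 0.13) and TGR-1 rapamycin (11.48 ± 0.21) to HO15.19 rapamycin (11.64 ± 0.12; SD, n = 3). Of these neighbours, only the rapamycin groups overlapped. Ccn2 ran from TGR-1 control (13.13 ± 0.14) through TGR-1 rapamycin (13.68 ± 0.06) and HO15.19 rapamycin (13.78 ± 0.20) to HO15.19 control (13.91 ± 0.01). For Ccn2, TGR-1 rapamycin overlapped HO15.19 rapamycin, which in turn overlapped HO15.19 control. Mmp3 ran from TGR-1 rapamycin (5.41 ± 0.14) and TGR-1 control (5.75 ± 0.15) to HO15.19 rapamycin (9.47 ± 0.18) and HO15.19 control (9.88 ± 0.35), the last pair overlapping.

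Across the 12 arrays, Mmp3 and Serpinb10 had the highest correlation (Pearson r = 0.98), then Ccn1 and Adm (r = 0.87). The value for Mmp3 and Serpinb10 reflects the step between the lines. With rapamycin in HO15.19 they moved in opposite directions (−0.42 and 0.79). Ccn1 and Ccn2, the CCN family members, correlated at 0.60, and Ccn1 and Mmp3 at 0.25. The points share lines, treatments and controls, so these values are a description only.

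Among 1732 other named probes, the profile of Ccn1 was most like those of Gadd45g (r = 0.959), Lrrc56 (0.955) and Akr1c19 (0.949). Ccn2 was most like Ccni (0.931), Thra (0.924) and Scarf2 (0.918). The closest to Adm were the loci RGD1561956 (0.990) and LOC364253 (0.989), and Serinc3 (0.986). Mmp3 was closest to Irf7 (0.989), Nqo1 (0.988) and Spp1 (0.983), and Serpinb10 to Cxcl12, Mgp and Mageb7 (0.996 each). The Mmp3 and Serpinb10 companions were all higher in HO15.19, by 1.43 (Spp1) to 4.64 (Mgp) on the log2 scale.

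Other genes of the same families were taken from lists of pathway members, of which those with a name here had been listed for a rapamycin response in at least 1 line. Over all tested probes, 19.5% were called higher in HO15.19 and 40.2% in either direction. The median absolute line difference was 0.41 over named probes and 0.22 over all, so nothing further is read from the counts per list. In the CCN family, 3 of 6 genes were named, and Ccn5, a member that lacks the C-terminal domain of the others, went the other way from Ccn1 and Ccn2. Ccn5 averaged 7.65 ± 0.13 and 8.64 ± 0.14 in TGR-1 control and rapamycin cells and 7.03 ± 0.14 and 7.89 ± 0.26 in the HO15.19 groups (SD, n = 3). Its line difference was −0.68 (SE 0.10, adjusted p = 1.92e-05 in limma), so it was lower in HO15.19 cells. With rapamycin it was 0.99 higher in TGR-1 and 0.86 higher in HO15.19. No integrin or other CCN receptor of the 13 listed was named, so the receptors of CCN1 and CCN2 were not assessed.

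Of 24 other matricellular genes, 4 were named, with 3 higher and 1 lower in HO15.19 and a median line difference of 0.93. Osteopontin (Spp1), an integrin-binding matrix phosphoprotein, was 1.43 higher (SE 0.08, adjusted p = 9.93e-11). Ecm1 was 1.02 higher (adjusted p = 4.23e-08) and Igfbp7, which binds insulin-like growth factors, 0.84 higher (adjusted p = 7.18e-06), whereas fibulin 1 (Fbln1) fell by 0.87 (adjusted p = 5.2e-08).

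Of 38 metalloproteinase and inhibitor genes, Mmp3 and 4 others were named, with 3 of the 5 higher and none lower. Adamts1, a secreted metalloproteinase of proteoglycans, was 1.15 higher in HO15.19 (SE 0.07, adjusted p = 1.52e-09), and Reck, a membrane-bound inhibitor of matrix metalloproteinases, was 1.14 higher (SE 0.11, adjusted p = 1.18e-07). Mmp14, the membrane-type collagenase, had a line difference of 0.06 (SE 0.09, adjusted p = 0.613), and Adamts2, which trims procollagen, of 0.25 (adjusted p = 0.0437, missing the unadjusted limit). The 17-fold difference of Mmp3 was thus larger in size than those of the other named metalloproteinases.

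Of 34 serpins, serine proteases, cathepsins and cystatins, 9 were named. Leaving out Serpinb10, 5 of the other 8 were higher in HO15.19 and none lower, with a median line difference of 0.82. Serpinb2, an inhibitor of plasminogen activators of the same clade as Serpinb10, was 2.64 higher (SE 0.11, adjusted p = 5.66e-12 in limma). Like Mmp3, Serpinb2 was listed for HO15.19 only, and its highest TGR-1 group mean was 103, just above 100. The p-value does not allow for that choice, so nothing further is read from it. Serpinb2 means were 5.55 ± 0.08 and 5.22 ± 0.24 in TGR-1 and 8.37 ± 0.20 and 7.69 ± 0.30 in HO15.19, in each line with control first. It was detected on 11 of 12 arrays. In both lines the rapamycin mean was lower, by 0.33 and 0.68, unlike that of Serpinb10. The lysosomal protease cathepsin B (Ctsb) and the cathepsin inhibitor cystatin C (Cst3) were each 0.95 higher (adjusted p = 1.42e-08 and 2.6e-07), and cathepsin D (Ctsd) was 0.89 higher (adjusted p = 1.15e-06).

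Of 11 genes of the adrenomedullin system, 3 were named including Adm, and the others were not assessed. All 3 met the criteria for a higher level in HO15.19 (19.5% of all tested probes), with a median of 0.91. Ramp2, which pairs with Calcrl to form the adrenomedullin receptor, was 1.35 higher (SE 0.10, adjusted p = 1.56e-08). Pam, the enzyme that amidates the peptide into its active form, was 0.90 higher (SE 0.11, adjusted p = 2.65e-06).

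Of 24 YAP and TEAD targets, 8 were named, with 3 higher (Ccn1, Ccn2 and Tgfb2), 1 lower (Gadd45b), 4 not called and a median of 0.23. Tgfb2 was 0.95 higher (SE 0.08, adjusted p = 7.44e-08), and Gadd45b fell by 0.42 (adjusted p = 0.000202). Of 27 SRF targets, 9 were named. Leaving out Fos, an AP-1 subunit that was not detected in HO15.19 controls, Ccn1 and Ccn2 were higher, 2 lower and 4 not called, with a median of −0.02. The lower ones were the myosin light chain Myl9 (−0.80, adjusted p = 1.44e-06) and the tropomyosin Tpm1 (−0.49, adjusted p = 3.91e-05). Fos was listed for TGR-1 only and stayed under 100 in HO15.19 (highest group mean 79.2), so like Serpinb10 it gets no test. Directions thus varied within this list, and regulation by SRF was not tested.

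**Figure D5:**
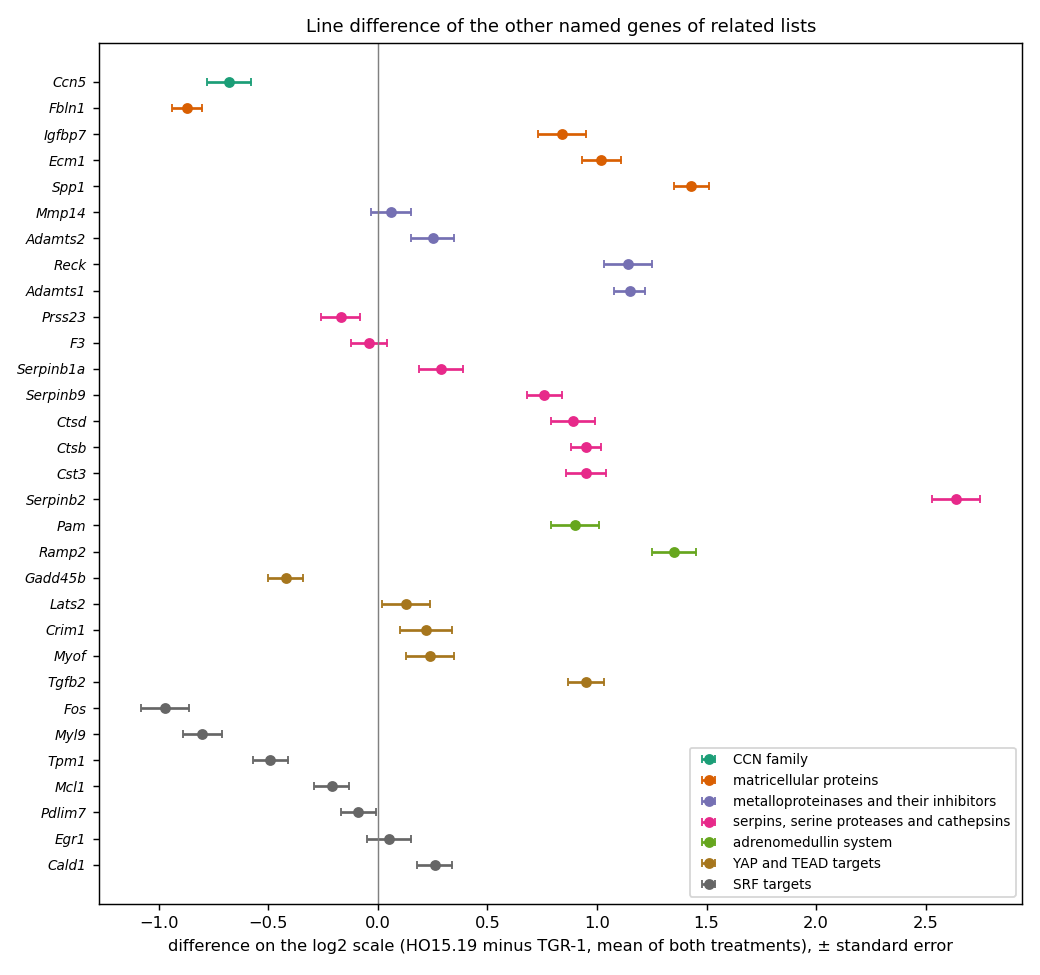
Line difference (x axis, HO15.19 minus TGR-1 on the log2 scale, averaged over treatments, with bars for the SE) for the genes named in the 7 related lists other than the 5 described here, coloured by list. Serpinb2 (2.64) lies farthest to the right, and Ccn5, Fbln1 and most SRF targets lie to the left of 0. Fos is a fitted value for a gene not detected in HO15.19 controls.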

How the data were processed

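RNA from 12 cultures was hybridised to Illumina RatRef-12 arrays. The authors deposited raw probe signal intensities with a detection p-value per probe, besides intensities quantile-normalised in BeadStudio, and they analysed these in Partek 6.3. Deposited gene lists gave gene names, and their comparison columns (fold changes, p-values and group means) were not used. Names were updated through Entrez identifiers for 1551 probes and kept as listed for 183. Raw intensities were background-corrected by the normexp method, quantile-normalised and log2-transformed with an offset of 16 (neqc in limma 3.58.1, R 4.3.3). Probes with a detection p below 0.05 on at least 3 arrays were kept (10852, 48.2%). One model with 4 group means was fitted with lmFit and eBayes (residual degrees of freedom 8, prior 8.72). The p-values were two-sided and Benjamini-Hochberg adjusted over all kept probes. The procedure was tested on simulated data. The number of arrays limits precision, and chip and position were not given in the sources used here, so no array batch was modelled. The alternatives tried were the dim probe filter, background correction, normalisation, the authors' normalised intensities, moderation, array weights, a replicate block, the criteria, each array left out, and the methods' test. The genes and lists were chosen with earlier results of these data known, and some list genes are not reported here. The genes named were all 5 members, up to 4 other called genes per list by size of line difference, those not called where they are contrasted, and the 3 most similar profiles per member. A gene with several probes was given by its brightest probe.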

Additional observations from a re-analysis of the deposited data

How the results depend on the processing

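Across the alternatives run, the direction of each line difference was kept. The call of Adm (0.81 to 0.98) and that of Mmp3 (3.09 to 4.17, lowest without background correction) held in all 24 settings. The listing of Mmp3 favoured its direction in every setting, so nothing further is read from its calls. Those of Ccn1 and Ccn2 did not hold throughout. Of the 4 tested genes, 2 met the criteria with median centring and 2 with a 1.5-fold minimum, and 3 to 4 when an array was left out. Among the settings, the methods' t-test used the control arrays alone, whose comparison with rapamycin chose the genes. Its outcome for these genes is therefore a description only, and the Adm value of 0.98 is the difference in controls. Ccn1 (0.48) did not meet the criteria there, either without Benjamini-Hochberg adjustment or with it. The cause was not tested. Without background correction or with the authors' normalised values, the fitted Serpinb10 line difference was 5.04 and 5.07, its TGR-1 rapamycin value 0.31 in both, and that of Adm 0.91 and 0.92.

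The 4361 probes called between the lines became 1780 with a 1.5-fold minimum and 2347 in the methods' t-test on the controls, with and without Benjamini-Hochberg adjustment. The 430 called for rapamycin in TGR-1 became 786 with array weights, 193 with a 1.5-fold minimum and 198 to 500 when an array was left out. The 558 in HO15.19 became 346 with median centring, 248 with a 1.5-fold minimum and 298 to 534 when an array was left out. The 12 called for the difference between the lines became 26 without a filter, 33 with a stricter filter, 60 without background correction, 1 with median centring, 63 with the authors' values, 49 with trended robust moderation and 26 with array weights. Leaving out an array gave 0 to 10 in limma, with 0 without TGR-1 rapamycin replicate 3, compared with 1057 probes at an unadjusted p under 0.05 with all arrays.

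Whether replicate numbers pair the samples was not settled. Correlations of deviations between arrays of the same number ran from −0.23 to 0.28, with 5 of 18 above 0.1. Of 12 arrays, 5 correlated best with their own number. For replicate 3, the TGR-1 control, TGR-1 rapamycin and HO15.19 rapamycin arrays correlated at 0.25 to 0.28. The HO15.19 control array of that number gave −0.14 and −0.15 with the TGR-1 arrays and 0.16 with HO15.19 rapamycin. With the replicate block, the counts were 4436 between the lines, 428 and 593 for rapamycin in TGR-1 and HO15.19, 11 for the difference and 4 of the tested genes, with no change of call for these genes. Signals of Mmp3 and Serpinb10 in TGR-1 lie near or below the detection limit, so their values there depend on the background correction.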
